A study of Mus musculus with 6 samples.

Results

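Viral restriction factors are host proteins that block a virus directly, at its entry, during its replication or at its release. The 10 restriction factor genes described here, Ifitm1, Ifitm2, Ifitm3, Ifitm6, Mx1, Mx2, Samhd1, Apobec3, Samd9l and Bst2, were chosen by name for that role from the 19930 genes of the array. All 10 were measured, through 14 features, each a group of probes with its own number, and 0 of these features were annotated to a further gene. The samples were 3 arrays of the H10 line, which fused to form multinucleated osteoclasts, and 3 arrays of the C8 line, which did not fuse. Both lines were mouse RAW264.7 macrophages that had taken up a retrovirus carrying Lifeact-mEGFP and puromycin resistance, and both had been cultured with sRANKL at 60 ng/mL for 2 days. Each line grew from a puromycin-resistant clone picked by limiting dilution, so differences between H10 and C8 cells cannot be told apart from differences between clones. No array of untransduced or unstimulated cells was analysed, and the labels name no separate cultures for the 3 arrays of a line, so that p-values refer only to array-to-array spread, which may be technical.

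Most restriction factors are induced by type I interferon. Signals from the interferon receptor reach an interferon-stimulated response element (ISRE) in the promoters of target genes, which IRF9 and its partners bind. The IFITM proteins sit in cell and endosomal membranes and hinder the fusion of virus with cell membrane. Later steps are hindered by other members, such as SAMHD1, which breaks down the deoxynucleotides needed for reverse transcription, and BST2 (tetherin), which holds budding particles on the cell surface. RAW264.7 cells come from a BALB/c mouse, and most laboratory strains carry defective Mx genes. The GRCm38.p6 gene table lists both Mx1 and Mx2 as transcribed pseudogenes.

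Among the 10 genes, Samd9l, Bst2 and Samhd1 were up-regulated in H10 cells, by 4.04-fold, 1.96-fold and 1.33-fold. The 4 Ifitm genes, Apobec3 and Mx1 did not pass the test, and neither did Mx2, although it had the second largest fold change. At an adjusted p under 0.05 from limma, 3 of the 10 genes were higher in H10 cells, against 1.85% of all 19930 genes (1.36% of all 35545 features), and 0 were lower, against 1.04% of all genes (0.757% of all features). At an unadjusted p under 0.05 these counts were 5 and 0, with Mx2 and Ifitm3 added. Of all 19930 genes, 1216 were higher and 1528 lower at that threshold. These counts over all genes also apply to the unadjusted counts given below for the other lists. Every H10 array was above every C8 array for 5 of the 10 genes, against 7.74% of all genes, and below for 0, against 12.7%. None of the 10 also reached the fold of 5 that the study's methods set, which 0.206% of genes did in the upward direction. The median log2 fold change, H10 minus C8, was 0.17 for the 10 genes and -0.03 for all genes.

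Promoters from RefSeq (GRCm38.p6) were at hand for 8 of the 10 genes and were read from 250 bases before to 50 bases after the start of the gene. The ISRE core, a pair of short repeats whose matches are in capitals in each sequence shown, was searched on both strands. It was found in 3.44% of 32851 promoters of this length. Of the 8 genes, 4 held it: Bst2, Ifitm2, Ifitm3 and the first of 2 promoters of Apobec3. The bases before the start are shown for the 3 genes that were up-regulated, 5′ to 3′ on the strand of the gene.
Samd9l, chr6:3399572-3399821, minus strand: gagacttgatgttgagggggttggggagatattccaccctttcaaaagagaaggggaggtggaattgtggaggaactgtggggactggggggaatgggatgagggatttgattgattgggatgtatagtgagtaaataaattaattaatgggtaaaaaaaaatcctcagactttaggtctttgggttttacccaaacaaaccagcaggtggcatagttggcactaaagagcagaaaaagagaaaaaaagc
Bst2, chr8:71537473-71537722, minus strand: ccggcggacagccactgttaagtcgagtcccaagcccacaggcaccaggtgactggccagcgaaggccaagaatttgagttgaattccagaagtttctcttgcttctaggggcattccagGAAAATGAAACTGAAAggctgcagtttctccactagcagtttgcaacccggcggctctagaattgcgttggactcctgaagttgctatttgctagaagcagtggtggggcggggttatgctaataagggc
Samhd1, chr2:157135097-157135346, minus strand: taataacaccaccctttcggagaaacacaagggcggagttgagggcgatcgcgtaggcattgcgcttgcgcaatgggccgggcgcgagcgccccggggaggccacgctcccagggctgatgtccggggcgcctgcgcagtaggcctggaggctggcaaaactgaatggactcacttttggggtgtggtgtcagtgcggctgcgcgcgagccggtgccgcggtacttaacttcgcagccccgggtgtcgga
Bst2 held 2 overlapping matches, from -130 to -121 and from -124 to -115 relative to the start, and no match was found in the whole window of Samd9l or Samhd1. For comparison, the matches of 2 Ifitm genes that did not pass the test are shown in the same way, those of Ifitm3 lying just after its start.
Ifitm3, chr7:141010716-141010742, minus strand: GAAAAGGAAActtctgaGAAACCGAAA
Ifitm2, chr7:140955962-140956011, minus strand: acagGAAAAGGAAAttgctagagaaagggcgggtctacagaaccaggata
Thus 1 of the 3 up-regulated genes held a match, and so did 3 of the 5 others with a promoter. A match is a run of letters, not a measured binding site, and a window without these letters may hold other forms of the element.

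The restriction factors with a role at virus entry, the 4 Ifitm genes, did not pass the test. Ifitm3, which acts mainly in endosomes, had log2 values of 13.87, 14.02 and 13.89 on the H10 arrays, against 13.70, 13.74 and 13.77 on the C8 arrays. Each H10 array exceeded each C8 array, but the log2 fold change was 0.19 (standard error 0.07, 95% interval 0.03 to 0.35) and its adjusted p = 0.312 did not pass. Ifitm2, a close relative, had 13.34, 13.46 and 13.46 in H10 cells, against 13.34, 13.47 and 13.40 in C8 cells, so that the lines overlapped (log2 fold change 0.02, 95% interval -0.15 to 0.18, adjusted p = 0.971). Ifitm1, whose protein acts mainly at the cell surface, had 7.76, 7.81 and 7.85 in H10 cells, against 7.65, 7.88 and 7.89 in C8 cells, with equal means (log2 fold change 0.00, 95% interval -0.20 to 0.20, adjusted p = 1). Ifitm6, a member of the same gene cluster on chromosome 7, was the one restriction factor with a negative log2 fold change. Its values were 11.32, 11.88 and 11.44 in H10 cells, against 11.85, 11.71 and 11.98 in C8 cells, and the lines overlapped through H10 replicate 2 (log2 fold change -0.30, 95% interval -0.67 to 0.07, adjusted p = 0.556). Ifitm2, Ifitm3 and Ifitm6 were above the upper quartile of each array (9.83 to 9.94) in both lines, and Ifitm1 was close to the array medians (7.65 to 7.74).

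The features of Ifitm1 and Ifitm2 were read with their place on the array in mind. Ifitm2 had 3 features with the same 5 accessions behind them, and the brightest of them, 10383756, stood for the gene. Feature numbers on this array mostly follow the genome, and 94.3% of 21687 features had their next feature on the same chromosome. By that order only feature 10569014 lay between Ifitm5 and Ifitm3. Feature 10383756 stood between Smtn and Tug1 on chromosome 11, and 0 of its 10 nearest neighbours were on chromosome 7, while 10553299 stood between Gtf2h1 and Ldha, elsewhere on chromosome 7. The log2 fold changes of these features were 0.02 for 10383756, 0.04 for 10553299 and -0.07 for 10569014, and none passed (adjusted p = 0.971, 0.935 and 0.878). The second feature of Ifitm1, 10570434, had 1 of its 10 nearest neighbours on chromosome 7 and a log2 fold change of 0.13 (adjusted p = 0.827). All features thus gave small differences, and which transcript or copy each one read was not tested.

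The dynamin-like GTPases Mx1 and Mx2 did not pass the test, with fold changes of 1.10 and 3.10. In mice with intact genes, MX1 acts in the nucleus against influenza viruses and MX2 in the cytoplasm. Mx2 had log2 values of 6.58, 7.96 and 7.75 on the H10 arrays, against 5.84, 5.65 and 5.90 on the C8 arrays. Each H10 array exceeded each C8 array, but H10 replicate 1 lay closer to the C8 arrays than to the other H10 arrays, and the SD was 0.74 in H10 and 0.13 in C8 cells (n = 3 each). The log2 fold change of 1.63, 3.10-fold, ranked 81st among all genes, and with a standard error of 0.34 it did not pass (95% interval 0.81 to 2.46, adjusted p = 0.0826 from limma). Without H10 replicate 1 it was 2.06 and passed (adjusted p = 0.00234). Mx1 had 5.61, 5.68 and 5.84 in H10 cells, against 5.71, 5.58 and 5.41 in C8 cells, and the lines overlapped (log2 fold change 0.14, 95% interval -0.10 to 0.39, adjusted p = 0.714). Mx1 in both lines and Mx2 in C8 cells lay under the lower quartile of each array (6.34 to 6.44). As no background level was measured, the size of their differences is uncertain. The position of their probes within the genes was not analysed here, and whether the difference between the Mx1 and Mx2 fold changes exceeds the error was not tested.

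**Figure D1:**
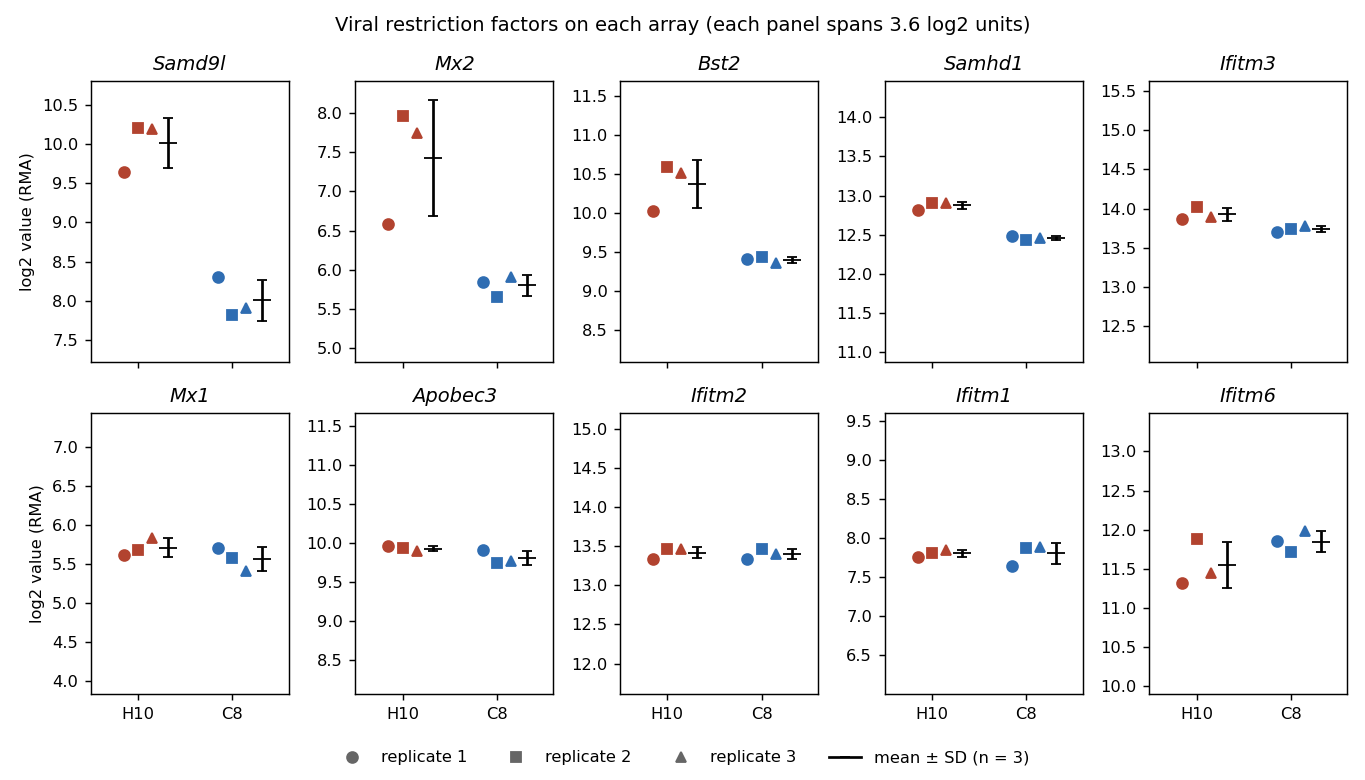
Log2 value (RMA) of each restriction factor on each array of H10 cells (left, red) and C8 cells (right, blue), one panel per gene, with each line's mean and SD in black (n = 3). The panels have different centres and the same span. The H10 arrays lie above the C8 arrays for Samd9l, Mx2, Bst2, Samhd1 and Ifitm3, and the lines overlap for the other 5 genes.

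Of the factors that hinder reverse transcription, Samhd1 rose slightly and Apobec3 did not pass. Samhd1 had log2 values of 12.82, 12.90 and 12.90 on the H10 arrays, against 12.48, 12.43 and 12.46 on the C8 arrays. The difference was small but well beyond the spread within each line, with means of 12.87 ± 0.05 in H10 and 12.46 ± 0.03 in C8 cells (SD, n = 3 each). Its log2 fold change was 0.42 (standard error 0.06, 95% interval 0.28 to 0.56, adjusted p = 0.0207 from limma). Removing H10 replicate 2 or 3, or C8 replicate 2 or 3, ended the call (adjusted p = 0.0818 to 0.125) at log2 fold changes of 0.40 to 0.42. Apobec3, a cytidine deaminase that mutates and hinders retroviral DNA, had 9.96, 9.93 and 9.89 in H10 cells, against 9.91, 9.74 and 9.77 in C8 cells. One C8 array, replicate 1, lay within the range of the H10 arrays (log2 fold change 0.12, 95% interval -0.05 to 0.29, adjusted p = 0.614). A second feature of Apobec3 did not pass either (log2 fold change 0.10, adjusted p = 0.834).

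Samd9l had the largest fold change of the 10 genes. The protein restricts poxviruses by halting translation and also limits the growth of myeloid cells. Its log2 values were 9.65, 10.21 and 10.19 on the H10 arrays, against 8.30, 7.81 and 7.90 on the C8 arrays. The lowest H10 array was well above the highest C8 array, with means of 10.02 ± 0.32 in H10 and 8.00 ± 0.26 in C8 cells (SD, n = 3 each). The log2 fold change of 2.01 (standard error 0.19, 95% interval 1.55 to 2.47, adjusted p = 0.00553 from limma) ranked 52nd among all genes. Samd9l passed in all 17 other settings run, not all of which were separate tests. No further feature read this gene, so taking the feature with the smallest change repeated the fit. The FDR of 0.01 read the same adjusted p again. Tested with TREAT, which asks whether a change exceeds a given fold, Samd9l was the one restriction factor beyond a fold of 1.5.

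Among the genes that passed, Bst2 had the next largest rise after Samd9l. Its product is a membrane protein with an anchor at each end. Its gene had log2 values of 10.02, 10.59 and 10.51 on the H10 arrays, against 9.41, 9.43 and 9.36 on the C8 arrays. The groups did not overlap, and the SD was 0.31 in H10 and 0.04 in C8 cells (n = 3 each). The log2 fold change was 0.97 (standard error 0.15, 95% interval 0.61 to 1.33, adjusted p = 0.0293 from limma). Removing H10 replicate 2, H10 replicate 3 or any single C8 array ended the call (adjusted p = 0.0872 to 0.127) at log2 fold changes of 0.87 to 0.99. Without H10 replicate 1 it was 1.15 (adjusted p = 0.00345).

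**Figure D2:**
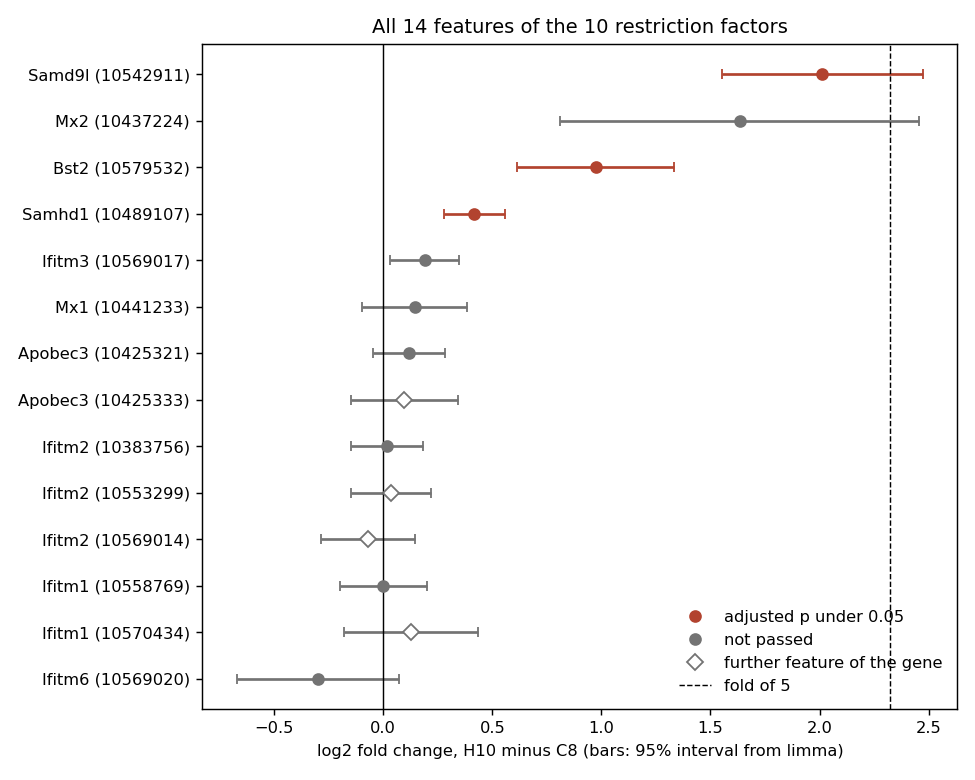
Log2 fold change, H10 minus C8, of all 14 features of the 10 genes, with 95% intervals from limma. Filled circles mark the feature that stood for a gene, red where the adjusted p was under 0.05. Samd9l, Bst2 and Samhd1 are red, Mx2 lies at 1.63 with a wide interval and is not red, and no circle reaches the dashed line at a fold of 5.

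Within the H10 line, replicate 1 was often the lowest array. For 9 of the 10 genes it was the lowest of the 3, which held for 31.1% of all genes, and Apobec3 was the exception. Its distance below the mean of the line was largest for Mx2, at -0.85, followed by Samd9l with -0.37, Bst2 with -0.35 and Ifitm6 with -0.23 on the log2 scale. For the other 6 genes replicate 1 was within 0.10 of the mean of the line. The median log2 value of this array, 7.72, was within the range of the other arrays. The SD of the difference from another array, over all features, was 0.25 and 0.26 for H10 replicate 1 and 0.20 between the other two H10 arrays. Between C8 arrays it was 0.29 and 0.29 for the pairs with C8 replicate 1, and 0.24 between C8 replicates 2 and 3. The 10 genes are read from the same arrays and are not replicates of each other, and the part of array quality in this pattern was not tested.

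**Figure D3:**
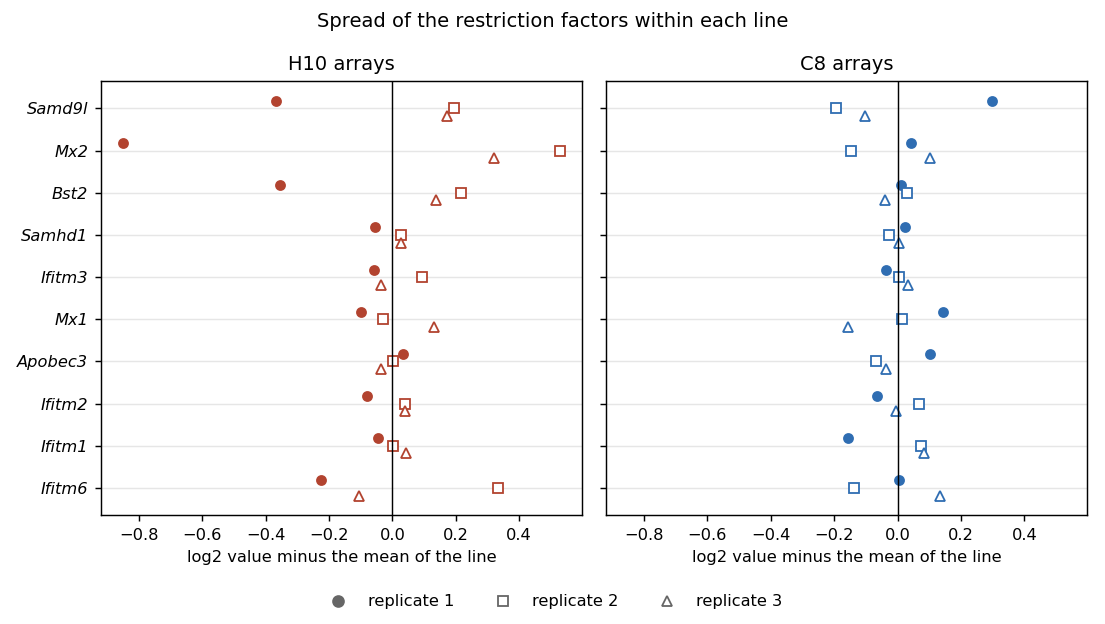
Log2 value of each restriction factor minus the mean of its line, for the H10 arrays (left) and the C8 arrays (right), with replicate 1 as filled circles. H10 replicate 1 has values of -0.85 for Mx2, -0.37 for Samd9l and -0.35 for Bst2, and lies below its line for all genes but Apobec3.

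Other antiviral effectors were set beside the 10 genes. Of 29 genes measured from a list of 32 effectors that act against viruses at entry, on their RNA or proteins, on translation or on their particles, 17 rose, 0 fell and 12 did not pass (20 higher and 1 lower at an unadjusted p under 0.05 from limma). Without H10 replicate 3, 11 rose. Their median log2 fold change was 0.78. The largest rise was that of Trim30a, a relative of the retroviral restriction factor TRIM5 of primates. Its log2 values were 12.46, 12.82 and 12.71 in H10 cells, against 7.68, 7.06 and 7.24 in C8 cells, and the lines were far apart (log2 fold change 5.34, standard error 0.17, adjusted p = 0.000138). Trim30a is also among the genes the study named from these arrays, so it is not independent evidence. Rsad2, which makes a chain-terminating nucleotide, rose by a log2 fold change of 2.70 (adjusted p = 0.00333), Isg20, an RNA exonuclease, by 2.39 (adjusted p = 0.0093) and Ifit1, which binds foreign RNA caps, by 2.29 (adjusted p = 0.0113). For 15 of the 17 effectors that rose, H10 replicate 1 was the lowest H10 array, as it was for most restriction factors. Serinc3, which is built into retroviral particles and lowers their infectivity, was the one effector lower by the unadjusted p (-0.18 on the log2 scale, adjusted p = 0.269). Ly6e, a GPI-anchored protein that affects virus entry, had -0.07 (adjusted p = 0.899). Isg15 and Gbp2 were read only by features shared with another gene and were left out.

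Genes of the interferon pathway were read in the same fit, and their relation to the restriction factors was not tested. Of 9 genes of type I interferon signalling, 2 rose, 0 fell and 7 did not pass (3 and 0 at an unadjusted p under 0.05), with a median log2 fold change of 0.09. Irf7, a transcription factor that amplifies interferon production and another gene the study named, rose by a log2 fold change of 3.71 (adjusted p = 0.000639), and Irf9, the DNA-binding partner of STAT2, by 1.06 (adjusted p = 0.00405). Stat2, picked out after its values were seen, missed the threshold (log2 fold change 0.66, adjusted p = 0.0765). The receptor subunit gene Ifnar2 had -0.01 (adjusted p = 0.979) and the receptor kinase gene Jak1 0.13 (adjusted p = 0.644). Ifnb1, which encodes interferon-β and was picked out after its values were seen, had log2 values of 6.37, 6.44 and 6.15 in H10 cells, against 6.13, 6.09 and 6.46 in C8 cells (adjusted p = 0.885). These values lay about the lower quartile of the arrays (6.34 to 6.44), and no background level was measured. Whether Ifnb1 was expressed in either line, or differed between them, is thus uncertain.

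Close relatives of the restriction factors did not pass the test in either direction. Of 8 such genes measured, 0 rose and 0 fell (1 and 0 at an unadjusted p under 0.05 from limma), with a median log2 fold change of -0.03. Among them Ifitm5, Ifitm7 and Ifitm10, picked out after their values were seen, had log2 fold changes of -0.03, -0.02 and -0.03. Apobec1, which edits apolipoprotein B mRNA, had 0.30 (adjusted p = 0.208) and the mitochondrial fission GTPase gene Dnm1l 0.06 (adjusted p = 0.801).

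Because SAMHD1 consumes deoxynucleotides, genes of deoxynucleotide metabolism were examined in the same fit. Of 12 genes listed under dNTP synthesis and salvage, 0 rose and 0 fell (2 and 1 at an unadjusted p under 0.05 from limma). Their median log2 fold change was 0.01. Rrm1, the large subunit of ribonucleotide reductase, did not pass (log2 fold change 0.03, adjusted p = 0.947), and the deaminase gene Dctd was at -0.07 (adjusted p = 0.841). The genes past the unadjusted p, picked out after their values were seen, were the kinase gene Dck (log2 fold change 0.44, adjusted p = 0.102) and the deaminase gene Cda (0.22, adjusted p = 0.249), both higher, and the kinase gene Tk1 (-0.27, adjusted p = 0.145).

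Both lines carried an integrated retroviral vector packaged with the VSV-G envelope, so genes of retroviral silencing and entry were described too. Of 10 genes that silence integrated retroviruses through chromatin, 0 rose and 0 fell (0 and 2 at an unadjusted p under 0.05 from limma), with a median of -0.065. Yy1, a zinc finger protein that binds retroviral promoters, did not pass (log2 fold change -0.12, adjusted p = 0.533), nor did Pphln1, of the HUSH silencing complex (-0.04, adjusted p = 0.907). The genes past the unadjusted p, picked out after their values were seen, were the zinc finger gene Zfp809 (log2 fold change -0.32, adjusted p = 0.0981) and Atf7ip (-0.26, adjusted p = 0.15), a partner of the histone methyltransferase SETDB1. Of 7 receptors of retroviral or VSV-G envelopes and their relatives, 1 rose and 0 fell (2 and 1 at an unadjusted p under 0.05). Xpr1, a phosphate exporter and the receptor of xenotropic and polytropic murine leukaemia viruses, had log2 values of 12.36, 12.03 and 12.20 in H10 cells, against 11.40, 11.19 and 11.23 in C8 cells. Its groups were well apart (log2 fold change 0.92, standard error 0.10, adjusted p = 0.00945). Lrp1, of the LDL receptor family, did not pass (log2 fold change 0.32, adjusted p = 0.184), nor did Slc7a1, the receptor of ecotropic murine leukaemia viruses (-0.02, adjusted p = 0.973). Lrp8, picked out after its values were seen, was the gene lower at an unadjusted p under 0.05 (-0.25, adjusted p = 0.405).

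**Figure D4:**
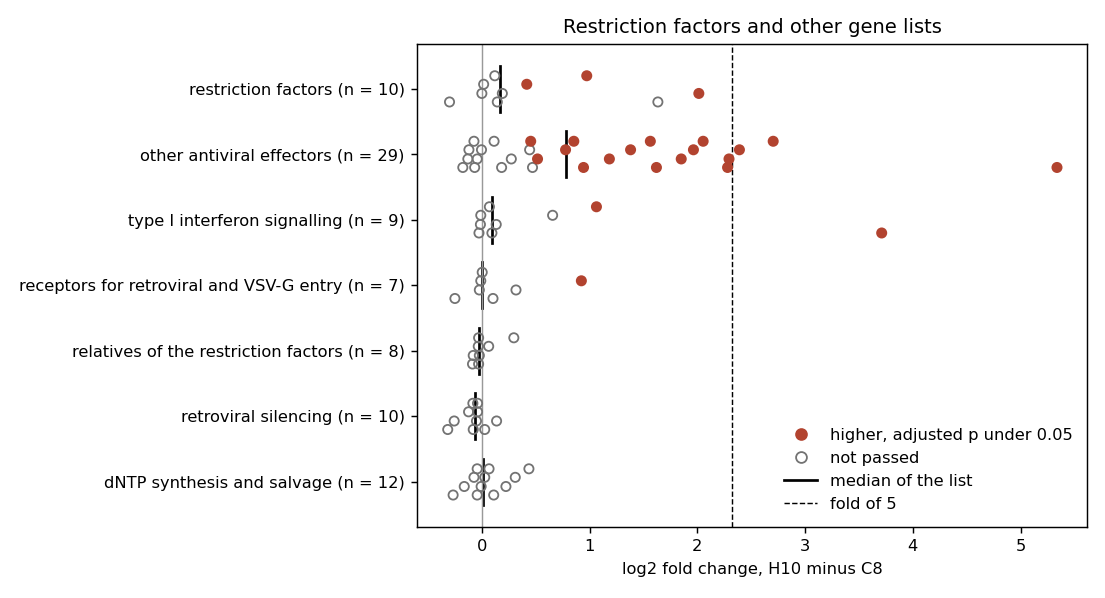
Log2 fold change, H10 minus C8, of each gene of 7 lists, with red points for an adjusted p under 0.05 and a black bar at the median of each list. The medians are 0.17 for the restriction factors and 0.78 for the other antiviral effectors, and from -0.065 to 0.09 for the other lists.

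The arrays were those of macrophages by their markers. Cd68, Csf1r, Lyz2, Cd14 and Spi1 were above the upper quartile of each array, and the means of Fcgr1 and Mertk were under the table median of 7.70. The mean over 9 macrophage markers reached 11.1 to 11.2 in H10 cells, against 10.8 to 10.9 in C8 cells. Of these markers Adgre1, which encodes F4/80, was the one that passed the test, with values of 9.62, 9.73 and 9.40 in H10 cells, against 7.71, 7.58 and 7.39 in C8 cells (log2 fold change 2.02, adjusted p = 0.00114). Its part in the differences above was not tested. Of 28 markers of B cells, T cells, dendritic cells, neutrophils, fibroblasts and epithelial cells, 0 passed (1 higher and 2 lower at an unadjusted p under 0.05 from limma). The list means of these types were 6.47 to 7.54 in H10 cells, against 6.42 to 7.63 in C8 cells, and 6 of the 28 markers were above the table median. The marker that was higher was the fibroblast gene Dcn, picked out after its values were seen (log2 fold change 1.48, adjusted p = 0.074). Its values were 8.46, 7.19 and 7.74 in H10 cells, against 6.50, 6.21 and 6.25 in C8 cells, and its part in the results was not tested. Cd79a and Cd3g were the lower markers, at -0.23 and -0.19.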

How the data were processed

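Arrays were Affymetrix Mouse Gene ST, and the authors deposited log2 values after RMA normalization as 1 table of 35545 features and 6 arrays. Per the submitters' processing notes the software was Affymetrix Expression Console (version not given in the sources used here). No feature was filtered out. Of all features, 21781 carried 1 gene symbol, 1621 several and 12143 none, and the brightest single-symbol feature stood for a gene. The lines were tested by limma 3.58.1 under R 4.3.3 (lmFit and eBayes, two-sided), after the study's methods, with Benjamini-Hochberg adjustment over all features and a threshold of 0.05. An exact permutation test of 3 against 3 arrays cannot go below p = 0.1 and was not used. The number of arrays limits the precision. The fit was tested on simulated data of the same size. Named genes were the 10 restriction factors and, from each other list, up to 4 genes that passed in each direction, by fold change, and the 2 brightest that did not. All were chosen with earlier results of these data known. Alternatives left out arrays, fitted the replicate number as a block, or changed the normalization, feature choice, filter, variance prior, adjustment or threshold. Plots used matplotlib 3.10.9 (Python 3.11.15).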

Additional observations from a re-analysis of the deposited data

How the results depend on the processing

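Of the restriction factors, 3 were higher in H10 cells in the fit as reported, and 1, Samd9l, with the replicate number as a block, at an FDR of 0.01 and by TREAT against a fold of 1.5. Leaving out 1 array gave 1 to 4, with 4, Mx2 included, without H10 replicate 1. None was lower in any of the 17 settings. The count at a fold of 5 or more was 0, and it was 1, Samd9l, without the replicate 1 arrays of both lines, and 0 when any 1 array was left out. Of the other antiviral effectors 17 were higher, 11 to 16 when 1 array was left out and 7 by TREAT. Of 17 settings, Bst2 and Samhd1 did not pass in 8 each. Mx2 passed in 3 of 16, being left out by the filter on dim features: without H10 replicate 1, without both replicate 1 arrays and with features of a gene averaged. In that last setting Mx2 had no further feature to average, and its log2 fold change stayed 1.63. What differed was the set of rows that the fit and the adjustment ran over. The sign of the fold change was the same in all settings for all restriction factors but Ifitm1 and Ifitm2, which never passed. The labels give both lines replicates 1 to 3, and the numbers were not taken as pairs in the fit as reported. Deviations of same-numbered arrays correlated at 0.17, -0.00 and -0.12, and those of differently numbered arrays at -0.18 to 0.23. Deviations from a line's own mean depend on each other, so these values cannot settle whether the numbers mark pairs. Under the block Bst2 (adjusted p = 0.0651) and Samhd1 (adjusted p = 0.0985) did not pass. The causes of these changes were not tested.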
